A study of Mus musculus with 3 samples.

Results

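The transcription factor genes described here are Pou5f1, Nanog, Sox2, Klf2, Klf4, Zfp42, Esrrb, Tfcp2l1, Prdm14 and Nr0b1, a set known for the naive pluripotent state of mouse cells. They were taken by symbol, and each of the 10 symbols matched 1 of the 32285 genes in the count matrices. Their levels were compared between 4 states of cells, which were cut from other genes except that Pou5f1 itself chose the epiblast barcodes.

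The cells came from mouse blastoids, which are models of the blastocyst built from stem cells in culture, and single-cell libraries were made with version 3.1 of the 10x Genomics 3' chemistry. The 3 libraries carry the titles NrESC_Type_I, NrESC_Type_II and NrESC_Type_III and are called by their type below, with 1 library for each type, and the labels do not say what sets the types apart. All 3 shared their source and treatment: the mouse embryonic stem cell line E14 grown with 1000 U/mL LIF and 10 µM T0901317, an agonist of the liver X receptors, then seeded at 5 cells per microwell. Per the labels, the shared additions were 12.5 ng/mL rhFGF4, 0.5 µg/mL heparin, 3 µM CHIR99021, 2 µM Y27632 on the opening day, 5 ng/mL BMP4 and 0.5 µM A83-01. Structures were picked by hand on day 5 and digested for 30 min, so each library pools many structures of 1 cell line, and no library lacks T0901317.

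In the blastocyst the inner cell mass gives rise to epiblast, which founds the embryo proper, and to primitive endoderm (PrE), which later lines the yolk sac as visceral and parietal endoderm, while the outer trophectoderm (TE) founds the placenta. Oct4 (the product of Pou5f1), Sox2 and Nanog form the core of the pluripotency network, and Klf2, Klf4, Esrrb, Tfcp2l1, Prdm14 and Nr0b1 belong to the wider circuit that holds mouse embryonic stem cells in the naive state. Klf4 and Tfcp2l1 are known targets of LIF and Stat3 signalling in those cells, and several of these genes are silenced as epiblast moves to the primed state of the implanting embryo.

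Barcodes of at least 10000 UMIs with no more than 20% of them mitochondrial entered, which left 1405, 1992 and 272 barcodes in Types I, II and III, or 3669 in all, with median depths of 52224, 41491 and 71540 UMIs. Visceral endoderm barcodes had a summed level of Ttr, Rbp4, Apoa1 and Apoa2 of at least 1000 CPM (UMIs of a gene scaled to a common total per barcode or per sum). Of the others, early PrE barcodes had at least 100 CPM of Gata6, Sox17 and Gata4, TE barcodes at least 800 CPM of Krt8, Krt18 and Krt19, and epiblast barcodes at least 150 CPM of Pou5f1. The epiblast state held 351, 582 and 121 barcodes in Types I, II and III, early PrE 271, 376 and 45, visceral endoderm 443, 563 and 19, and TE 208, 278 and 72, with 340 barcodes in no state. Marker genes outside these rules were checked, 8 for each state: in each library all 8 epiblast markers were highest in the epiblast state, as were 6 of 8 visceral endoderm and TE markers and 5 to 7 of 8 early PrE markers in their own states. The exceptions among TE markers were Cdx2, at 4.82 to 12.5 CPM in TE against 10.9 to 18.9 CPM in visceral endoderm, and Tead4, and Elf5, although highest in TE, reached at most 1.01 CPM there.

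The reference promoters of the members show which letters of the known pluripotency motifs stand next to their starts, and 4 are printed for members whose levels are described below: Nanog, Sox2 and Zfp42, which followed the epiblast, and Klf4, which did not. Each is the 250 bases before an annotated start in RefSeq, build GRCm38.p6, read along the gene's strand, with matches to the searched motifs in capitals.
Nanog, chr6:122707239-122707488, + strand: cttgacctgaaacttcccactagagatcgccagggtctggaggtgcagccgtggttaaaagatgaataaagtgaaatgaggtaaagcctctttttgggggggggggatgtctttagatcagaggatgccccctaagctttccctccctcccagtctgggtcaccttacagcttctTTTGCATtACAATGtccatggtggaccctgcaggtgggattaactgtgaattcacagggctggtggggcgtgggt
Sox2, chr3:34649745-34649994, + strand: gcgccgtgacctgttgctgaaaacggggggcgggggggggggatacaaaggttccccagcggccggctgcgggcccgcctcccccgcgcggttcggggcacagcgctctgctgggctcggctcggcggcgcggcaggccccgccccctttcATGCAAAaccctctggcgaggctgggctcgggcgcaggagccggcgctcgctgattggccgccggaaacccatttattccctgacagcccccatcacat
Zfp42, chr8:43307010-43307259, - strand: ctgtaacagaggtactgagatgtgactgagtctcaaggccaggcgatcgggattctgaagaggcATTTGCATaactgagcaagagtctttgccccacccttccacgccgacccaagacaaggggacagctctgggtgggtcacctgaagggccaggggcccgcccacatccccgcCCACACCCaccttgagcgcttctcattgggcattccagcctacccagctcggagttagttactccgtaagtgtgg
Klf4, chr4:55532476-55532725, - strand: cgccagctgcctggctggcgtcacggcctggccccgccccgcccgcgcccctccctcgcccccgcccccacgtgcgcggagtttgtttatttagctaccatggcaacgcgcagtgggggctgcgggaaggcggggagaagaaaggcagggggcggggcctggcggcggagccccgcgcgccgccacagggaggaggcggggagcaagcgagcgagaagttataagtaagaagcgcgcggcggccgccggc
RefSeq promoters were found for 9 of the 10 members, and the one missing was Prdm14. Motifs were searched on both strands in the 250 bases before and 50 bases after each start, for all 32851 promoters of the table. A member counts as matched if any of its promoters matches, while shares over all are counted by promoter. The composite POU-SOX element, in which the POU core TTTGCAT is followed after 1 base by the SOX core ACAATG and which Oct4 and Sox2 are known to bind together, stood 75 bases before the Nanog start, and the only promoters with it, 2 of 32851 (0.00609%), were the pair listed for Nanog. The POU core alone, which is part of that element and of the octamer, stood in the promoters of Nanog, Sox2 and Zfp42, 3 of 9 members, against 4.63% of all promoters. Zfp42 held it within the full octamer ATTTGCAT (1.74% of all promoters), 186 bases before its start, and also the KLF motif CCACACCC (3.56% of all), 75 bases before its start. The SOX core (12.6% of all) was found at Nanog, in the second Pou5f1 promoter and after the Esrrb start, while the ESRRB motif TCAAGGTCA (0.423% of all) and the GATA motif AGATAA (11.2% of all) matched no member. No searched motif matched the promoters of Klf2, Tfcp2l1 and Nr0b1, which were also highest in epiblast in each library, or that of Klf4. All matches given here are matches of letters and were not tested as binding sites.

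Pou5f1, Sox2 and Nanog, the core factors, were all highest in the epiblast barcodes of each library. Pou5f1 (chr17:35506018-35510772, + strand) encodes the POU factor Oct4 and stood at 418, 375 and 532 CPM in the epiblast of Types I, II and III. Because Pou5f1 chose those barcodes, this level is a description. In the other 3 states it was at 62.4, 68.7 and 133 CPM in early PrE, at 41.3, 55.6 and 106 CPM in TE, and at 9.77, 19.1 and 6.87 CPM in visceral endoderm. The order epiblast, early PrE, TE and visceral endoderm was the same in all 3 libraries, and the visceral endoderm values did not overlap those of the other states. The share of all genes with such a gap was not counted.

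Nanog (chr6:122707489-122714633, + strand) encodes the homeodomain factor that opposes primitive endoderm fate in the inner cell mass. It stood at 133, 136 and 202 CPM in epiblast, 4.55, 4.62 and 2.00 CPM in early PrE, 2.43, 4.86 and 2.86 CPM in visceral endoderm and 7.22, 9.82 and 14.6 CPM in TE. Its lowest epiblast value was thus far above every value in the other 3 states, a gap whose share over all genes was not counted. TE was next in each library, and early PrE and visceral endoderm overlapped. Sox2 (chr3:34650405-34652461, + strand), the HMG-box partner of Oct4, stood at 158, 171 and 203 CPM in epiblast, 13.1, 27.8 and 23.3 CPM in TE, 5.84, 7.57 and 5.57 CPM in early PrE and 3.71, 5.49 and 1.72 CPM in visceral endoderm. Its order was the same in all 3 libraries, with TE second. Early PrE and visceral endoderm were neighbours whose counting intervals (95%, exact Poisson) overlapped in Types II and III, and in Type II they were 6.26 to 9.06 and 4.62 to 6.48 CPM.

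**Figure D1:**
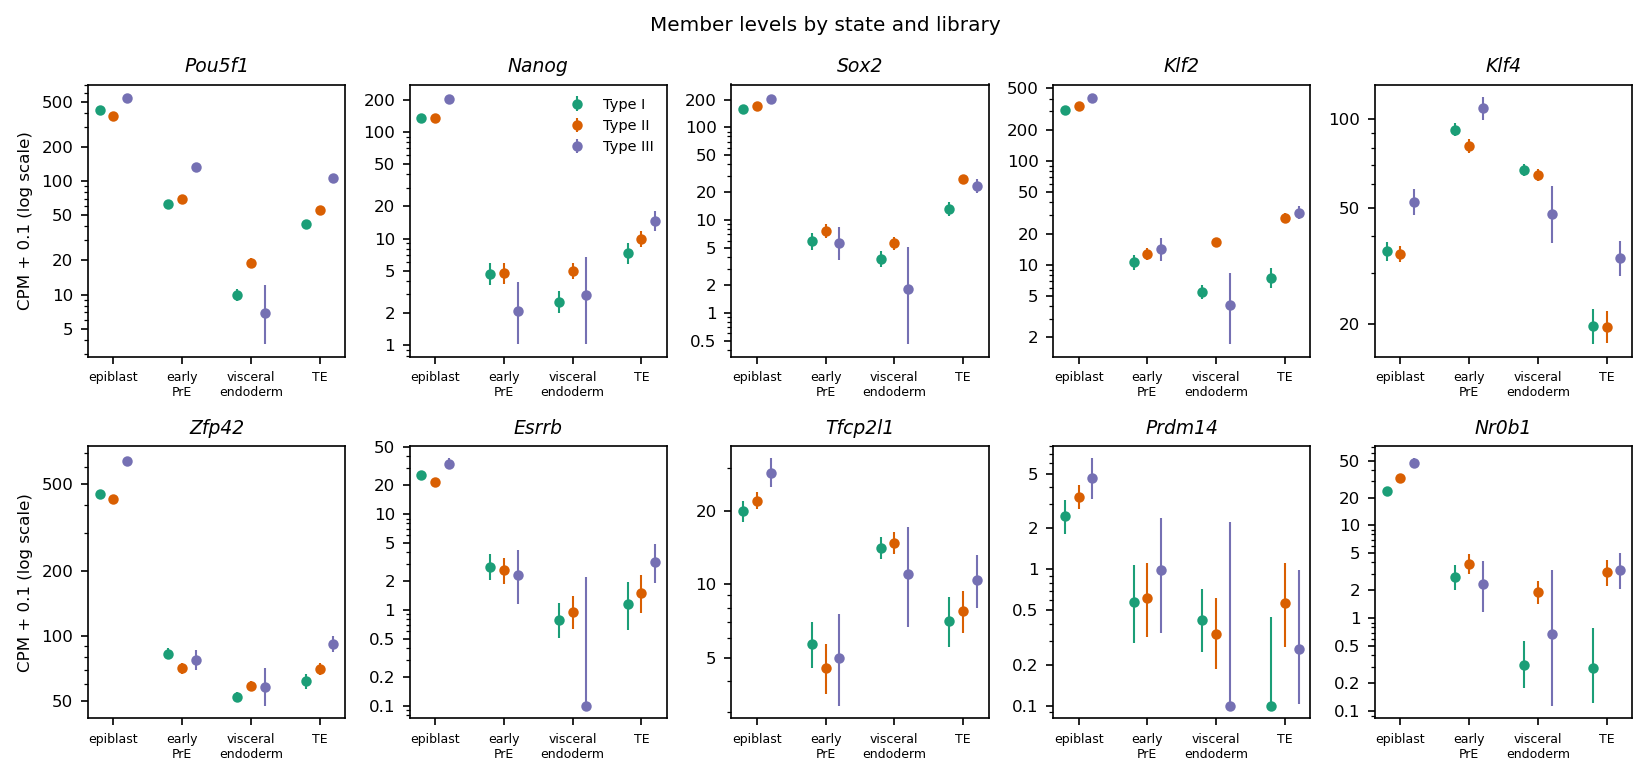
Level of each of the 10 genes in CPM, on a log axis with 0.1 added so that values of 0 can be drawn, by state and library. Points are counts summed over the barcodes of a state in 1 library and bars are exact 95% Poisson intervals, which cover counting error only; Klf4 is the gene whose highest points lie in early PrE.

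Klf2 (chr8:72319033-72321656, + strand), a zinc finger factor of the Krüppel family, followed the core factors at 309, 339 and 400 CPM in epiblast. In the other 3 states it lay between 4.01 CPM in the visceral endoderm of Type III and 31.8 CPM in the TE of Type III. Its order outside the epiblast differed between libraries, with early PrE second in Type I and TE second in Types II and III.

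Zfp42 (chr8:43295063-43306980, - strand) encodes Rex1, a zinc finger protein long used as a marker of naive cells. It was at 453, 427 and 640 CPM in epiblast, against 83, 71.1 and 77.9 CPM in early PrE, 61.9, 70.4 and 92.0 CPM in TE and 52.6, 58.9 and 58.4 CPM in visceral endoderm. The other 3 states were thus close to each other and clearly above 0. Within the epiblast Zfp42 was uneven: the median barcode had 253, 186 and 477 CPM, and the middle 50% of barcodes ran from 61.3 to 761 CPM in Type I.

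Esrrb (chr12:86361117-86521628, + strand), an orphan nuclear receptor, stood at 25.8, 21.8 and 33.7 CPM in epiblast and at no more than 3.05 CPM in any other state, with 0 counts among the 19 visceral endoderm barcodes of Type III (3 counts, the limit a count of 0 allows, would be 1.72 CPM). Nr0b1 (chrX:86191764-86195947, + strand), which encodes the nuclear receptor Dax1, stood at 23.3, 32.5 and 47.4 CPM in epiblast and at no more than 3.78 CPM in the other 3 states. Prdm14 (chr1:13113457-13127163, - strand), which represses genes of the primed state, was sparse, with 46, 88 and 34 UMIs in all epiblast barcodes of Types I, II and III, or 2.34, 3.30 and 4.58 CPM, and at most 0.891 CPM in the other 3 states. For these 3 genes the epiblast values of the 3 libraries did not overlap those of any other state. How often this holds over all genes was not counted.

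Tfcp2l1 (chr1:118627945-118685168, + strand), a grainyhead-like factor known to act downstream of LIF, was highest in epiblast at 19.8, 21.9 and 28.5 CPM. Its second state in each library was visceral endoderm, at 14.0, 14.7 and 10.9 CPM, ahead of TE at 6.94, 7.64 and 10.3 CPM and early PrE at 5.57, 4.42 and 4.90 CPM. In Type III the intervals of visceral endoderm (6.55 to 17.0 CPM) and TE (7.91 to 13.1 CPM) overlapped widely.

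Klf4 (chr4:55527143-55532466, - strand), a Krüppel-family factor and a member of the classic reprogramming set, was the exception. It was highest in early PrE in every library, at 92.1, 80.9 and 109 CPM, against 35.5, 34.7 and 52.2 CPM in epiblast. In visceral endoderm it stood at 66.9, 64.5 and 47.5 CPM and in TE at 19.6, 19.6 and 33.6 CPM. Early PrE was therefore above epiblast in all 3 libraries, while visceral endoderm was above epiblast in Types I and II only: in Type III, with 19 visceral endoderm barcodes, the intervals were 37.8 to 58.9 and 47.2 to 57.7 CPM. The median epiblast barcode had 10.7, 5.45 and 8.76 CPM of Klf4 in Types I, II and III, and the median early PrE barcode 67.8, 59.7 and 61.7 CPM.

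The states were tested on counts summed per library and state, with the library as a block, by edgeR's quasi-likelihood test with Benjamini-Hochberg adjustment over 14080 genes. The visceral endoderm of Type III had fewer than 20 barcodes and was left out, so 11 sums entered. Comparisons with visceral endoderm therefore had sums of that state from Types I and II only. The spread of each gene was estimated from all 11 sums together and was shared by all state comparisons. Since each type has 1 library, the p-values weigh state differences against that spread across libraries of different types, not against replicates.

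Epiblast against visceral endoderm sets the lineage that founds the embryo beside the more mature endoderm. Of the 9 members tested (Pou5f1 is left out because it chose the epiblast barcodes), 8 were higher in epiblast, where 36.6% of all genes were called higher, and 1, Klf4, was lower, where 37.5% of all genes were. The median difference of the 9 members was 5.04 on the log2 scale, against -0.01 over all genes. Nanog and Sox2 differed most, by 5.39 (SE 0.21) and 5.36 (SE 0.18), and Klf2, Esrrb and Nr0b1 by 5.12, 5.06 and 5.04. Prdm14 and Zfp42 differed by 3.42 and 3.18, and Tfcp2l1 by 0.70 (SE 0.11, adjusted p = 5.64e-05 by edgeR). Klf4 was lower by 0.75 (log2 fold change -0.75, SE 0.08, adjusted p = 2.52e-06 by edgeR), and with the 19 barcodes of Type III included the value was -0.56.

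Epiblast against early PrE compares the lineages that arise from the inner cell mass. Again 8 members were higher in epiblast (34.2% of all genes were called higher) and Klf4 alone was lower (36.2% of all genes were called lower), with a median of 3.44 on the log2 scale against -0.03 over all genes. Nanog, Klf2 and Sox2 led with 5.26 (SE 0.19), 4.98 (SE 0.27) and 4.88 (SE 0.16). Nr0b1, Esrrb, Zfp42, Prdm14 and Tfcp2l1 followed at 3.48, 3.44, 2.81, 2.61 and 2.30. Klf4 had a log2 fold change of -1.09 (SE 0.08, adjusted p = 2.38e-08 by edgeR), or 2.12-fold higher in early PrE. Pou5f1, untested here, had a fitted difference of 2.57, smaller than those of 7 of the 9 tested members.

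Epiblast against TE compares the embryo proper with the placental lineage. All 9 members tested were higher in epiblast, Klf4 included, where 31.1% of all genes were called higher and 27.4% lower. The median was 4.07 on the log2 scale against 0.03 over all genes. Klf2, Nr0b1, Esrrb and Nanog differed by 4.42, 4.36, 4.31 and 4.26, Prdm14 by 4.07, Sox2 by 3.40 and Zfp42 by 3.09. Tfcp2l1 and Klf4 differed least, by 1.84 (SE 0.12) and 1.11 (SE 0.09, adjusted p = 1.39e-07 by edgeR). With library totals in place of TMM scaling the calls over all genes went from 4383 higher and 3861 lower to 2358 higher and 6440 lower, and the median of all genes moved to -0.30, while all 9 members stayed higher.

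**Figure D2:**
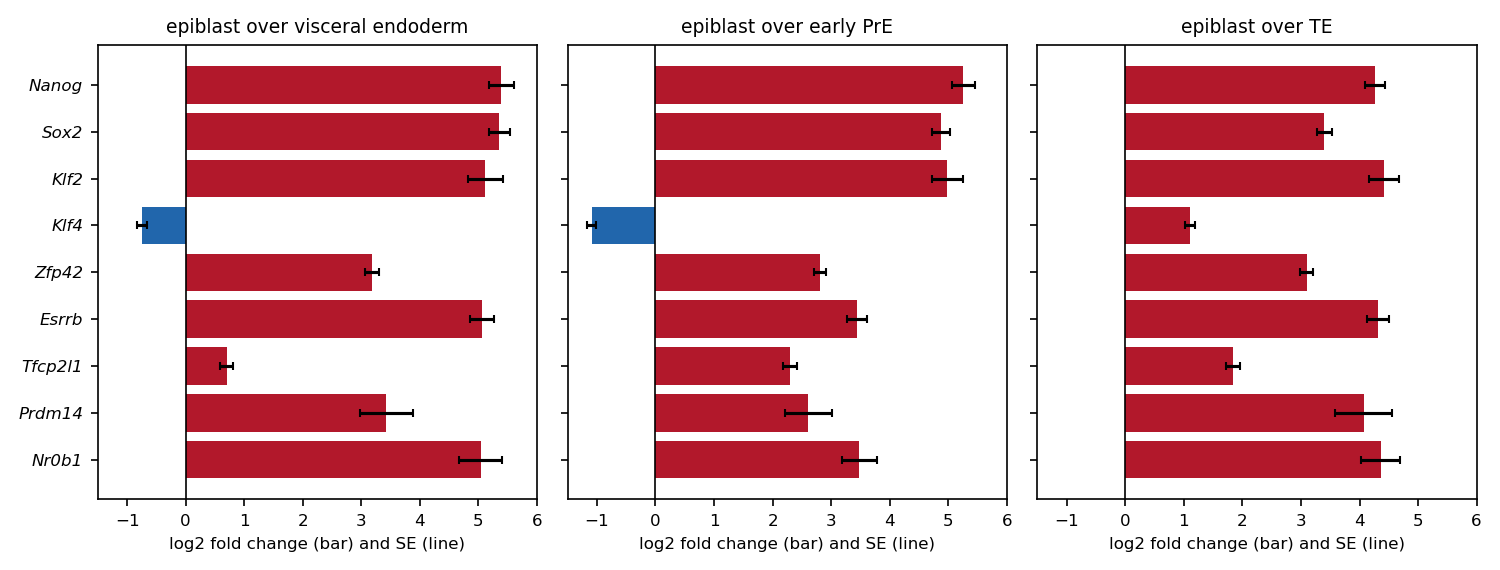
Log2 fold change of the 9 tested genes in epiblast over visceral endoderm, early PrE and TE, with Pou5f1 left out because it defined the epiblast barcodes. Bars are edgeR estimates and black lines 1 SE to each side; Klf4 is below 0 against both endoderm states (-0.75 and -1.09) and above 0 against TE (1.11).

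Klf4 was also set beside immediate early genes, which are known to rise during tissue dissociation. The summed level of 10 immediate early genes was 345 to 362 CPM in epiblast, 415 to 442 CPM in early PrE, 439 to 541 CPM in visceral endoderm and 716 to 929 CPM in TE in the 3 libraries. These genes were thus higher in both endoderm states than in epiblast, as Klf4 was except in the visceral endoderm of Type III, and highest in TE, where Klf4 was lowest. Their part in the Klf4 differences was not tested. Barcodes at or below the median of these genes in their own library and state were also compared. Among them Klf4 was lower in epiblast, with log2 fold changes of -0.98 against early PrE and -0.58 against visceral endoderm. Each state had its own median, so the states were not matched for the level of the immediate early genes.

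Between the states outside the epiblast none of the 10 members had been used to choose barcodes, so all 10 were tested. From visceral endoderm to early PrE, 5 members were higher in early PrE (9.41% of all genes were) and 1 was lower (10.4% of all genes were). Pou5f1 was 2.28 higher in log2 terms (SE 0.21, edgeR adjusted p = 8.40e-06), Esrrb by 1.62, Nr0b1 by 1.56, Zfp42 by 0.37 and Klf4 by 0.34. Tfcp2l1 went the other way, with a log2 fold change of -1.60 (SE 0.14, adjusted p = 3.65e-06 by edgeR). Nanog, Sox2, Klf2 and Prdm14 did not pass, at 0.14, 0.47, 0.14 and 0.81. Without Type I or without Type II only Pou5f1 was still called higher, and without the library block 2 of the 5 were.

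From visceral endoderm to TE, 3 members were higher in TE (30.5% of all genes were) and 2 lower (33.1% of all genes were). Sox2 was higher by 1.96 on the log2 scale (SE 0.19), Pou5f1 by 1.69 (SE 0.21) and Nanog by 1.13 (SE 0.26, adjusted p = 0.0017 by edgeR). Klf4 and Tfcp2l1 were lower in TE, with log2 fold changes of -1.86 (SE 0.09) and -1.14 (SE 0.13). The number higher was 5 or 6 under 6 of 17 alternatives and 4 under 4 more, and Klf2, which missed the threshold here, passed in all 10 of them. The summed level of the 8 epiblast markers outside the rules was 602, 1113 and 1562 CPM in TE against 513, 630 and 516 CPM in visceral endoderm, and its part in the higher Sox2 and Nanog of TE was not tested. With library totals in place of TMM the calls over all genes went from 4297 higher and 4665 lower to 5559 higher and 3671 lower.

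From TE to early PrE, 4 members were higher in early PrE (31.1% of all genes were) and 3 lower (27.9% of all genes were). Klf4 differed most, with a log2 fold change of 2.20 (SE 0.09, edgeR adjusted p = 1.19e-10), followed by Esrrb at 0.87, Pou5f1 at 0.59 and Zfp42 at 0.28. Sox2, Nanog and Tfcp2l1 were higher in TE, with log2 fold changes of -1.48, -0.996 and -0.46. In Type III Esrrb and Zfp42 were lower in early PrE than in TE, at 0.73 and 0.847 times the TE level. The calls of Esrrb, Pou5f1, Zfp42 and Tfcp2l1 were each lost under 3 to 8 of 17 alternatives, and with library totals, where the calls over all genes became 3334 higher and 5341 lower, Klf4 alone was called higher.

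Detection per barcode was compared after thinning each barcode to 10000 UMIs, because deeper barcodes find more genes. Nanog was then found in 58.7%, 57.7% and 63.6% of the epiblast barcodes of Types I, II and III, and in 2.03%, 2.66% and 5.26% of visceral endoderm barcodes, a cell type that should lack it. The 5.26% of Type III is 1 of 19 visceral endoderm barcodes. The median depths of these epiblast barcodes were 57747, 46588.5 and 59991 UMIs, and of the visceral endoderm barcodes 54589, 40808 and 92031 UMIs. Without thinning the shares of barcodes with Nanog were 86.3%, 83.2% and 82.6% in epiblast and 8.58%, 7.99% and 15.8% in visceral endoderm. Klf4 was found after thinning in 24.8%, 23.7% and 25.6% of epiblast barcodes and in 51.7%, 46.3% and 51.1% of early PrE barcodes. Of the 27 combinations of 3 libraries and the 9 members that the rule did not use, the share was highest in epiblast in 24. The other 3 were Klf4. How often the share is highest in epiblast over all genes was not counted.

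Traces of epiblast genes in endoderm barcodes can be free RNA, and the measured ratios differed between members. In Type I the visceral endoderm level was 0.937% of the epiblast level for Nr0b1, 1.74% for Klf2, 1.83% for Nanog, 2.34% for both Pou5f1 and Sox2, and 2.68% for Esrrb. It was 11.6% for Zfp42, 70.7% for Tfcp2l1, 188% for Klf4 and 14.0% for the sparse Prdm14 (from 9 UMIs), so the members did not share 1 ratio. In Type II the corresponding values were 3.22% to 5.55% for Nr0b1, Klf2, Nanog, Pou5f1, Sox2 and Esrrb, and 13.8%, 67.2%, 186% and 7.13% for Zfp42, Tfcp2l1, Klf4 and Prdm14. In Type III, with 19 visceral endoderm barcodes, Zfp42, Tfcp2l1 and Klf4 stood at 9.11%, 38.1% and 90.9% of their epiblast levels, Esrrb and Prdm14 had 0 counts, and the rest were between 0.844% and 1.42%. How much of the lowest levels is free RNA was not tested.

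The epiblast barcodes were divided by 3 genes of the primed state that are not members, Otx2, Pou3f1 and Fgf5, at a summed level of 100 CPM. The primed-marker-high side held 109, 234 and 41 barcodes, or 31.1%, 40.2% and 33.9% of the epiblast of Types I, II and III. This is a range and not a type: 27, 42 and 10 of those barcodes lay within 25 CPM of the limit. All 9 members other than Pou5f1 were lower on the primed-marker-high side, where 5.99% and 6.18% of 11714 genes were called lower and higher by edgeR. With library totals in place of TMM, the calls over all genes went from 724 higher and 702 lower to 1094 higher and 472 lower.

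Nr0b1 fell most, from 30.0, 46.3 and 61.4 CPM on the low side to 10.2, 12.7 and 22.7 CPM on the high side (log2 fold change -1.75, SE 0.10, adjusted p = 4.14e-09 by edgeR). Zfp42 went from 562, 576 and 763 CPM to 242, 214 and 425 CPM (log2 fold change -1.25, SE 0.07), and the 2 sides did not overlap across libraries. How many of all genes show this was not counted. Tfcp2l1 and Klf4 had log2 fold changes of -1.44 (SE 0.11) and -1.15 (SE 0.11), Esrrb -0.98, Klf2 -0.88, Nanog -0.86 and Sox2 -0.53 (SE 0.06). Klf4 thus differed in the same direction as the other naive genes within the epiblast, from 41.4, 44.1 and 68.8 CPM to 23.8, 21.2 and 23.0 CPM. Prdm14, at -1.18, rested on 10, 19 and 8 UMIs on the high side, and its call was lost under 6 of 20 alternatives.

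Pou5f1 stood at 426, 379 and 544 CPM on the low side and 404, 368 and 513 CPM on the high side (log2 fold change -0.14, SE 0.05). Both sides were bounded from below by the rule of at least 150 CPM of Pou5f1, so these values are a description and no test is read from them. Of 11 other primed genes that did not take part in the division all 11 were higher on the high side, where 6.18% of all genes were. Pim2 (log2 fold change 1.62) and the DNA methyltransferase Dnmt3b (1.35) led them. Markers of the primitive streak, summed over 7 genes, were lower there, at 29.2, 40.3 and 22.7 CPM against 52.8, 56.9 and 50.0 CPM.

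**Figure D3:**
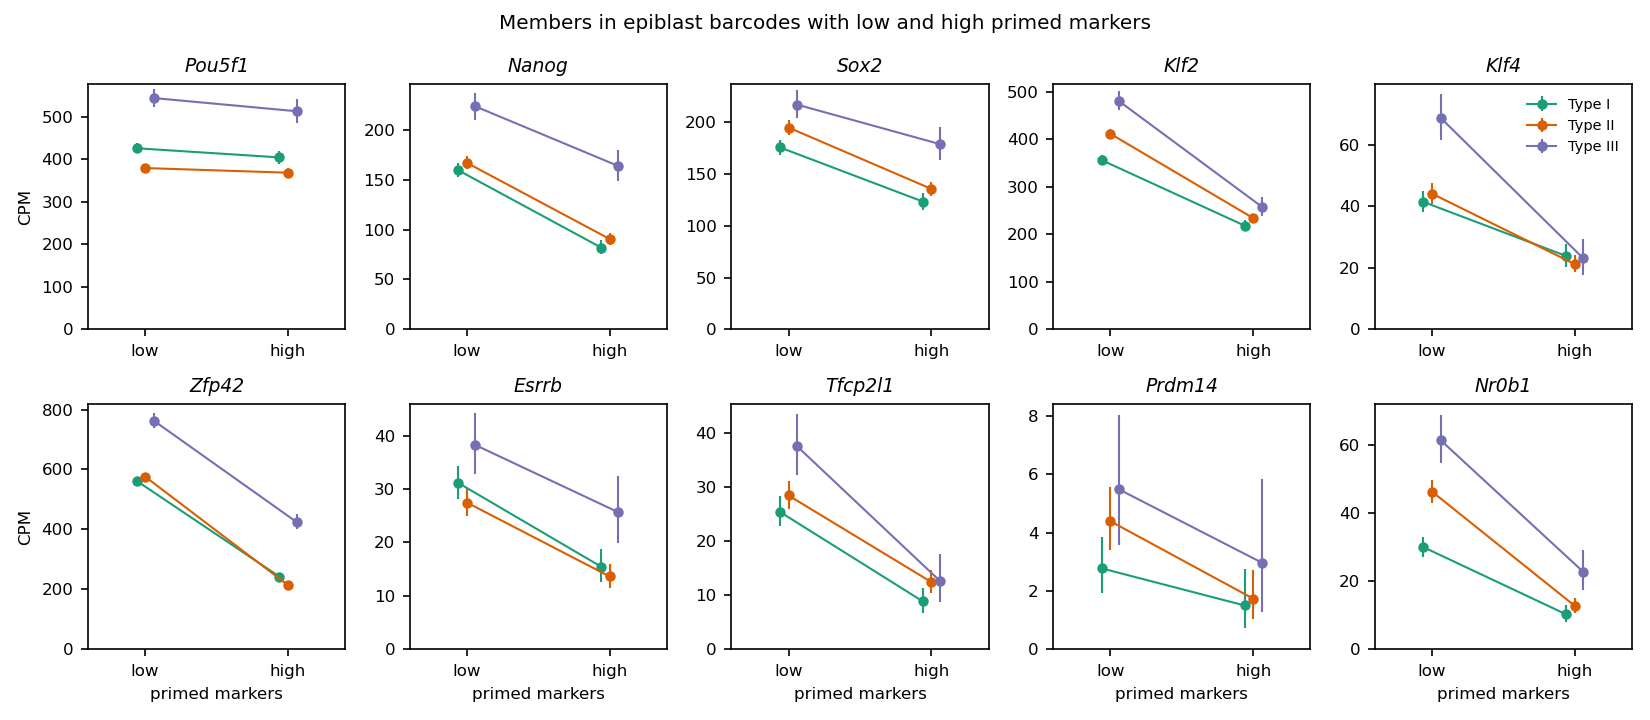
Level of each of the 10 genes in CPM, on a linear axis from 0, in epiblast barcodes below (low) and at or above (high) 100 CPM of Otx2, Pou3f1 and Fgf5. Points joined by a line are the 2 sides of 1 library and bars are exact 95% Poisson intervals; Pou5f1 lines are nearly level and the other 9 slope down.

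Members were next counted together in the same epiblast barcodes, at 10000 UMIs each. Of the 9 members other than Pou5f1 the median barcode held 4 in each library. At least 5 were found in 31.3%, 31.4% and 44.6% of the epiblast barcodes of Types I, II and III, and none in 3.42%, 4.81% and 4.13%. All 9 were found in 2 barcodes, both of Type III. In early PrE at least 5 were found in 1.85%, 0.532% and 2.22% of barcodes.

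Of the 36 pairs of these 9 members, 34 were found together more often than the product of their separate shares in all 3 libraries, and none less often in all 3. The exceptions, Sox2 with Prdm14 in Type I (0.99 times the product) and Esrrb with Prdm14 in Type II (0.53 times), both involve the sparsest member. The excess was modest, with a median ratio of 1.23, 1.26 and 1.23. The same count was not made for other gene pairs, so it does not show a trait particular to these members. Klf2 and Zfp42 went together most by rank, with Spearman correlations of 0.62, 0.59 and 0.63 over 351, 582 and 121 barcodes that share a library and a depth. Sox2 and Zfp42 reached 0.52, 0.48 and 0.30, and Nanog and Sox2, the core pair, 0.23, 0.26 and 0.26. Across the 36 pairs the median was 0.22, 0.19 and 0.24, and the lowest value -0.04. Correlations in sparse counts are low for rare genes, so their order is a description.

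Klf4 and Tfcp2l1, both known as LIF targets, were found together in 6.55%, 6.01% and 13.2% of epiblast barcodes, 1.63, 1.52 and 2.01 times the product of their shares, with Spearman correlations of only 0.16, 0.14 and 0.37.

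**Figure D4:**
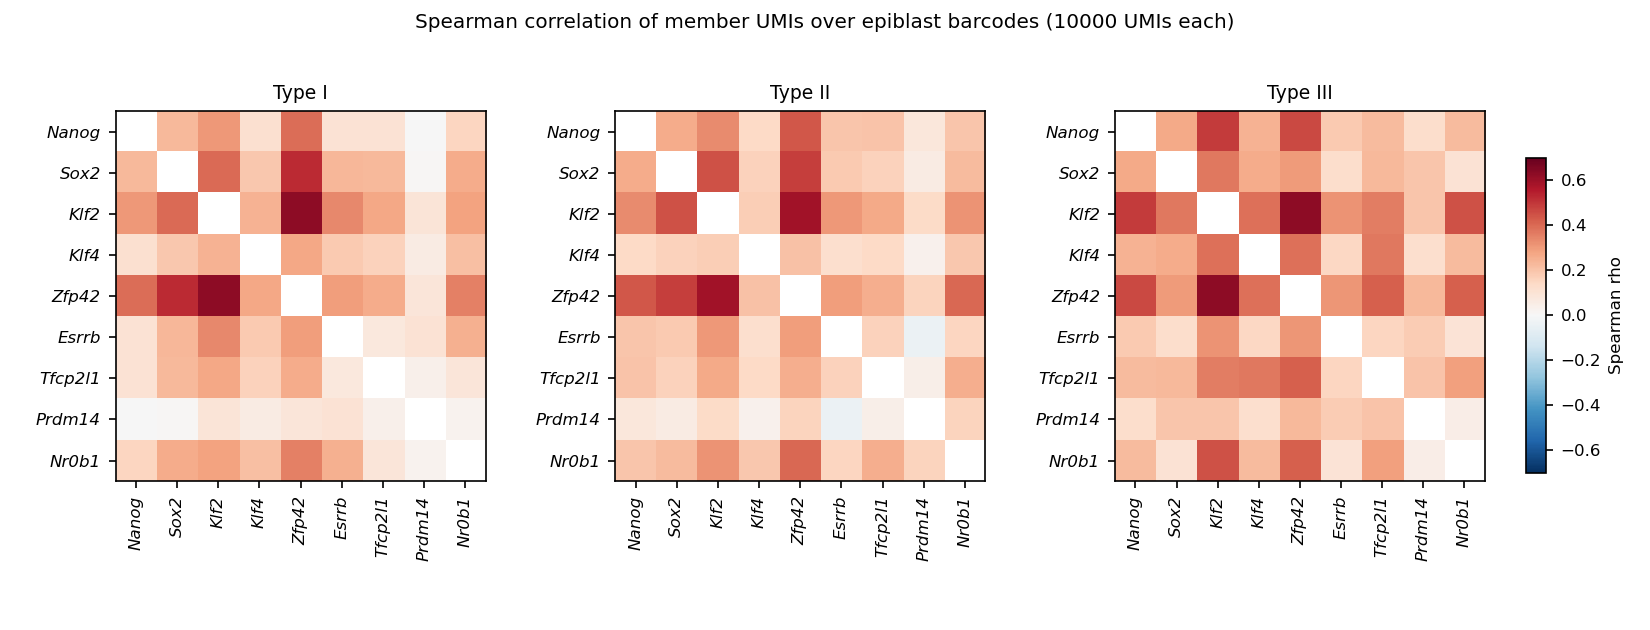
Spearman correlation of UMI counts for each pair of the 9 genes other than Pou5f1, over the epiblast barcodes of each library after thinning to 10000 UMIs. Red is positive and blue negative; the darkest cell off the diagonal in each panel is Klf2 with Zfp42 (0.62, 0.59 and 0.63).

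Members were also counted together with genes of other lineages, which took part in the state rules, so these shares are descriptions. Pou5f1 and Gata6, a driver of primitive endoderm, were found together in 24.4%, 27.7% and 44.4% of early PrE barcodes of Types I, II and III, against products of 22.8%, 24.5% and 38.3%. Nanog and Gata6 were found together in 2.21%, 1.60% and 0% of early PrE barcodes (0 of 45 in Type III, which allows a share of up to 6.67%). In epiblast barcodes, which by the rule hold little Gata6, Nanog and Gata6 met in 0.285%, 1.37% and 0% (0 of 121 in Type III, which allows up to 2.48%). Klf4 and Gata6 met in 38.4%, 33.8% and 42.2% of early PrE barcodes. Sox2 met Krt8 in 5.77%, 17.6% and 11.1% of TE barcodes, which is the share of TE barcodes with Sox2 to within 1 barcode, since nearly all hold Krt8.

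All 9 members other than Pou5f1 had their highest epiblast level in Type III, which held for 40.8% of the 4817 genes with at least 20 CPM in an epiblast sum. Of the 9, 7 were at least 1.2-fold above both other types, which held for 6.50% of those genes. This limit was chosen after the values were seen, and Prdm14, among the 7, lies under 20 CPM itself. Nanog was 1.52-fold and 1.49-fold and Zfp42 1.41-fold and 1.5-fold above Types I and II. Sox2 and Klf2 were the other members, at 1.19-fold and 1.18-fold above Type II. With 1 library for each type these are differences between libraries with no replicate check. Type III was also the deepest library with the fewest barcodes, and how far depth or barcode number bears on these ratios was not tested.

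Other genes of the pluripotency network, 29 that are not members, were counted beside them. Of the 29, 21 were higher and 5 lower in epiblast than in visceral endoderm, 22 and 4 against early PrE, and 20 and 4 against TE, where 36.6%, 34.2% and 31.1% of all genes were called higher, with medians of 1.92, 1.5 and 1.23 on the log2 scale. Foxd3, a forkhead factor of the pluripotent epiblast, led against all 3 states with log2 fold changes of 6.12, 5.61 and 5.45, and Fgf4, the ligand by which epiblast signals to primitive endoderm, had 5.84, 5.15 and 4.98. Within the epiblast 7 of the 28 tested were higher and 8 lower on the primed-marker-high side, where 6.18% and 5.99% of all genes were. The median of the list was -0.01, with Nr5a2 and Tcl1 lowest (both -1.62).

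Genes of the LIF and Stat3 pathway were counted in the same way. Of 12 genes, 3 were higher and 8 lower in epiblast than in visceral endoderm, 2 and 9 against early PrE, and 2 and 6 against TE, where 37.5%, 36.2% and 27.4% of all genes were called lower. The list's medians were -0.61, -0.82 and -0.40 on the log2 scale. Stat3, the transducer of the signal, had log2 fold changes of -1.77 and -1.11 in epiblast over visceral endoderm and early PrE, and Lifr, the LIF receptor, -1.20 against early PrE. Pim1, a kinase gene, was higher in epiblast by 2.39 and 1.82. In both endoderm comparisons Klf4 had the sign of Stat3 and Tfcp2l1 that of Pim1. Socs3, also listed, was higher in epiblast than in visceral endoderm by 1.31. Against TE, Klf4 was higher in epiblast by 1.11. Whether the members follow the pathway was not tested.

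The genes whose pattern over the 11 sums was most like the mean of the members, among 3411 genes, were Spp1 (Pearson correlation 0.99), Snhg3, Fgf4, Fbxo22, Bcat2, Sod2, Dpy30, Aldh2, Platr10 and Ooep (0.97). Spp1, which encodes osteopontin, stood at 37.6 to 73.6 CPM in epiblast and 0.190 to 4.50 CPM in the other 3 states. The genes most like Klf4 alone, a search added after its values were seen, were Arid5b (0.98), Ubald2, Sycp3, Tomm6 and Yipf5, and Sycp3 stood at 129 to 153 CPM in early PrE, 102 to 122 CPM in visceral endoderm, 47.5 to 53.7 CPM in epiblast and 21.2 to 32.9 CPM in TE. Sums of 1 library share cells and depth, so these correlations are descriptions.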

How the data were processed

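The deposited values are UMI counts, 1 matrix of 32285 genes for each library. Per the file headers the authors ran Cell Ranger 6.0.1, and mm10 is the build that the submitters' processing notes name. For barcode calling, settings are not given in the sources used. The 10 members, gene lists and comparisons were chosen with earlier results of these data known.

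Barcodes entered with 10000 or more UMIs and no more than 20% of them mitochondrial, and held 86.9%, 82.3% and 82.2% of the UMIs of Types I, II and III. Kept barcodes of Types I and II shared 1 sequence, and no others were shared. The state limits are given with the results; Scrublet (scanpy 1.11.5) called 3, 11 and 1 doublets, too few to be relied on, and none were removed. Counts were summed per library and state where it had at least 20 barcodes and tested with edgeR 4.0.16 in R 4.3.3 (TMM scaling, quasi-likelihood test, Benjamini-Hochberg threshold 0.05), with the library as a block because the states are parts of the same samples. Tested genes numbered 14080 (11714 within epiblast). The common dispersion was 0.00478. Each SE given with an edgeR value is the absolute log2 fold change over the square root of the test's F statistic. Genes of the state rules received no test, except that Pou5f1 was tested between the 3 states it did not choose. Levels are summed counts over the summed total (CPM). Shares have exact binomial and levels exact Poisson intervals (95%), which cover counting error only, and the limit for a share of 0 is 3 counts of the total. On simulated counts for epiblast over visceral endoderm (13517 genes) the test found 73% of genes changed 1.5-fold and 94% of those changed 2-fold. It made 9 false calls. The 100 genes changed by each fold were drawn above a count limit, and all genes had the common dispersion and no library effect. These rates therefore do not carry over to sparse genes such as Prdm14, or to comparisons in which most genes are called. Named genes are the 10 members, the check genes needed, up to 4 genes of each list with the largest changes past the threshold, and the 10 genes most like the members' mean, by Pearson correlation of log2(CPM + 10) among genes with at least 50 CPM in 1 sum. Exact matches in annotated transcripts of other genes were looked for in windows of 50 bases from the end of each member's protein-coding transcripts. Of 227 windows of Pou5f1, 1 matched another gene, Gm5712, and none of the other members' windows did. Copies with a mismatch in each window, or matching elsewhere in the transcript, would be missed. Gene positions are from GENCODE on GRCm38. DESeq2 1.42.0 was an alternative.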

Additional observations from a re-analysis of the deposited data

Results flagged for a closer look

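Klf2 in early PrE over visceral endoderm differed in direction between libraries. Its ratio was 1.95 in Type I, 0.771 in Type II and 3.50 in Type III, and the counting intervals of the 2 states did not overlap in any of the 3 libraries. Klf2 stood at 16.4 CPM in the visceral endoderm of Type II against 5.38 and 4.01 CPM in Types I and III, and Type III had 19 such barcodes. The difference between libraries was not tested, since each type has 1 library.

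Barcodes in no state also held core factors. Sox2 reached 48.0 CPM among the 193 barcodes of Type II outside all 4 states, and 36 and 32.2 CPM among the 132 and 15 barcodes of Types I and III, above its level in the TE of the same libraries (13.1, 27.8 and 23.3 CPM for Types I, II and III).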

How the results depend on the processing

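Across 17 alternatives (20 for the primed-marker division) the counts of members called in epiblast over visceral endoderm, early PrE and TE did not change: 8, 8 and 9 higher and 1, 1 and 0 lower. Klf4 ranged from -0.89 to -0.50 on the log2 scale against visceral endoderm and from -1.23 to -0.95 against early PrE. In early PrE over visceral endoderm the 5 members higher became 3 at a mitochondrial limit of 10% and 2 with no replicate block, and between 1 and 5 when 1 library was left out. In TE over visceral endoderm the 3 members higher became 6 without Scrublet's calls, with no low-count filter or with barcodes low in immediate early genes. They became 5 without the highest 10% of UMIs, with library totals, or with sums of at least 10 barcodes, and 4 at the lower UMI minimum, with state limits of 0.5 or 2 times the size, or without Type I. In early PrE over TE the 4 higher became 1 with library totals, 2 with DESeq2, 2 with no replicate block, and between 2 and 4 when 1 library was left out. The cause was not tested. The block changed no other count of members by over 1.5 times, and the library pairs states by design. Of 1169 single values, 1077 kept their call, 45 passed the threshold only under the alternative and 47 missed it. The 1169 include 20 values of Pou5f1 in the primed-marker division, from which no test is read. Of those 20, 8 did not keep their call. Values that passed in neither setting were counted as kept whatever their sign. Prdm14 in TE over visceral endoderm, for example, ranged from -2.94 to 0.39 on the log2 scale. Within epiblast 7 to 9 of the 9 members other than Pou5f1 were called lower on the primed-marker-high side. Co-detection above the product held for 31 to 36 of 36 pairs. The alternatives on immediate early genes and on sums of 10 barcodes were chosen after seeing the data. Depth limits Prdm14 most, with no more than 88 UMIs in any sum. With library totals in place of TMM the median of all genes moved to -0.16, -0.17 and -0.30 in epiblast over visceral endoderm, early PrE and TE, to 0.17 in TE over visceral endoderm and to -0.17 in early PrE over TE. Counts over all genes moved by over 1.5 times in 4 comparisons. In early PrE over visceral endoderm 2789 called genes became 4746 with state limits of 0.5 times the size, 1850 with no replicate block, 1532 with barcodes low in immediate early genes, 1181 without Type I and 247 without Type II. Without Type II, 8962 became 5476 in TE over visceral endoderm and 8244 became 5375 in epiblast over TE. In the primed-marker division 1426 became 935 without the highest 10% of UMIs, 944 with barcodes low in immediate early genes, 621 with the limit at 50 CPM, 557 with no replicate block, 514 without Type II and 432 with DESeq2.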

Other observations

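The barcodes in no state lay between epiblast and the other states for Nanog, at 29.0, 38.5 and 39.0 CPM in Types I, II and III, and Klf4 was low there, at 9.34, 20.8 and 12.7 CPM. Markers of the primitive streak, summed over 7 genes, stood at 142, 324 and 141 CPM in these barcodes against 44.8, 50.1 and 40.1 CPM in epiblast.

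Barcodes just outside and just inside the Pou5f1 limit of 150 CPM are described here, with no test. In Type II the 59 barcodes from 100 to 150 CPM held 68.4 CPM of Nanog, 122 CPM of Klf2 and 137 CPM of Zfp42, and the 53 from 150 to 200 CPM held 84.7, 212 and 179 CPM. In Type I, 21 barcodes just outside held 82.2 CPM of Nanog and 22 just inside 119 CPM. Values were not higher inside the limit for every member: Klf4 was at 26.6 CPM outside and 22.9 CPM inside in Type II, and Nr0b1 at 5.21 and 3.47 CPM in Type III, from 4 and 6 barcodes.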
